A study of Mus musculus with 16 samples.

Results

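The genes described here are the 39 mouse genes for cytosolic and mitochondrial aminoacyl-tRNA synthetases and their scaffold, chosen by symbol from the 43430 genes of the count table. They are 20 cytosolic genes (Aars to Yars), 16 mitochondrial genes whose symbols end in 2, and the 3 scaffold genes Aimp1, Aimp2 and Eef1e1. The rule used symbols and no measured value, but earlier results of these data were known when the genes were chosen. All 39 symbols were found, and all 39 were among the 11004 genes that passed the filter on low counts.

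Aminoacyl-tRNA synthetases join each amino acid to its own tRNA, the step that supplies the ribosome with building blocks. Mouse cells use separate nuclear genes for the cytosolic and the mitochondrial enzyme of most amino acids. In the cytosol several synthetases sit in one multi-synthetase complex, held together by the AIMP proteins and EEF1E1. When an amino acid runs short, uncharged tRNA activates the kinase GCN2, and the transcription factor ATF4 then raises genes of amino acid supply, among which several cytosolic synthetase genes are known targets.

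RNA was sequenced from macrophages grown from the bone marrow of C57BL/6J mice with macrophage colony-stimulating factor, a wild-type culture with no genetic change named in the labels. The cells were kept in complete medium or in medium without serine, each with no lipopolysaccharide (LPS, a bacterial outer membrane component that activates macrophages) or with 100 ng/mL LPS, and were harvested for RNA 4 h later. The labels give neither the age of the mice nor the time without serine, and do not say whether replicates are separate animals or cultures, so p-values measure only the spread between these libraries. Each of the 4 groups had 4 libraries numbered 1 to 4.

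Total counts ranged from 5760734 to 10043362 in 15 libraries, and replicate 4 of the untreated group lacking serine (untreated serine-free replicate 4) stood apart with 2871477. Leaving it out lowered the coefficient of variation of the whole fit from 20.9% to 14.1%, so results that rest on it are given with and without it. Replicate 1 of each group had no Xist counts and the other 12 libraries at least 351, so replicate 1 also differed in sex. The 9 macrophage markers summed to 16500 to 28500 CPM (a gene's count as a share of the library's TMM-scaled total, in counts per 1000000), against at most 107 for neutrophil, 15.2 for dendritic cell and 44.7 for stromal markers. B cell markers reached at most 3.04 CPM, and T and NK cell markers 0.169 CPM with Cd3e, Cd3d and Gzma at 0 in all libraries.

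In the promoter windows, 5 cytosolic genes carry the core of the amino acid response element, a site bound by ATF4 with C/EBP proteins, and 4 of these stretches are shown because the fold changes of genes with and without it are set side by side further on. The search used TGATGNAA on both strands in RefSeq windows (GRCm38.p6) from 250 bases before to 50 bases after the start site, each of 300 bases. The sequences follow the gene's strand and the capitals mark the match, which reads TTGCATCA or TTTCATCA where the element lies on the other strand.
Gars: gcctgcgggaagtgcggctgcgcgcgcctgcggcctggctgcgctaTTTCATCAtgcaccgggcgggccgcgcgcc
Iars: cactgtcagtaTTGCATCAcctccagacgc
Tars: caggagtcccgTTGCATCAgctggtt
Yars: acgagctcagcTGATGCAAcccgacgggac

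The Gars stretch (chr6:55037925-55038000, plus strand) ends at the base before the start site, with the match at -30 to -23 and no gene of the GENCODE annotation there. The Tars stretch (chr15:11399659-11399684, minus strand) has it at -15 to -8, also outside annotated genes. In Iars (chr13:49682126-49682155, plus strand) and Yars (chr4:129189895-129189924, plus strand) the match lies in an annotated exon, at 7 to 14 and at 3 to 10. The Yars match also overlaps annotated coding sequence of Yars.

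Windows were matched for 30 of the 39 genes. Among genes with a window, the element was found in 5 of 13 cytosolic genes (38.5%), 0 of 14 mitochondrial genes and 0 of 3 scaffold genes. Of all 27025 genes in the table, 1219 had it (4.51%). The stricter form TGATGCAA was in 4 of 13 cytosolic genes (30.8%) and in 279 of all genes (1.03%). Such a match describes these letters and shows no binding. Cars, Hars, Lars, Nars, Rars, Vars, Wars, Hars2 and Pars2 had no window in the table.

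Levels between genes are compared per kilobase of the exon length deposited with the counts, which can exceed 1 mRNA. In untreated cells with serine the 20 cytosolic genes had a median of 6.39 CPM per kilobase, from 1.94 for Vars (valine) to 101 for Nars (asparagine), with Gars (glycine) next at 31.6. The mitochondrial genes were lower, with a median of 1.35, from 0.319 for Ears2 (glutamate) to 3.77 for Fars2 (phenylalanine), except Lars2 (leucine) at 141. Of the scaffold genes Aimp1 stood at 27.9, Eef1e1 at 14 and Aimp2 at 1.8 CPM per kilobase. The order of the cytosolic genes depends on the deposited lengths, such as 18047 bases for Vars and 2632 for Nars. By CPM alone Nars was also the highest of them at 265, Aars (alanine) was next at 173 and Yars (tyrosine) lowest at 24.4. A lower level in these bulk cultures can mean fewer cells with the RNA or less RNA in each cell, which cannot be told apart.

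Serine withdrawal raised a set of cytosolic synthetase genes, and no gene of the mitochondrial or scaffold class passed the test. Classes follow the symbols alone, so a gene whose product serves both compartments would count as cytosolic. The difference between the classes was not itself tested. Averaged over untreated and LPS-treated cells, 7 of 20 cytosolic genes were called higher, Yars, Cars, Mars, Aars, Gars, Sars and Nars, against 0.282% of all genes tested in that direction. None was called lower, where the background was 0.0454%. Calls are by edgeR's quasi-likelihood test at a Benjamini-Hochberg adjusted p of 0.05, and fold changes are log2 of the level without serine over that with serine. The median log2 fold change was 0.53 for cytosolic, -0.06 for mitochondrial and 0.04 for scaffold genes, beside 0.02 for all genes.

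**Figure D1:**
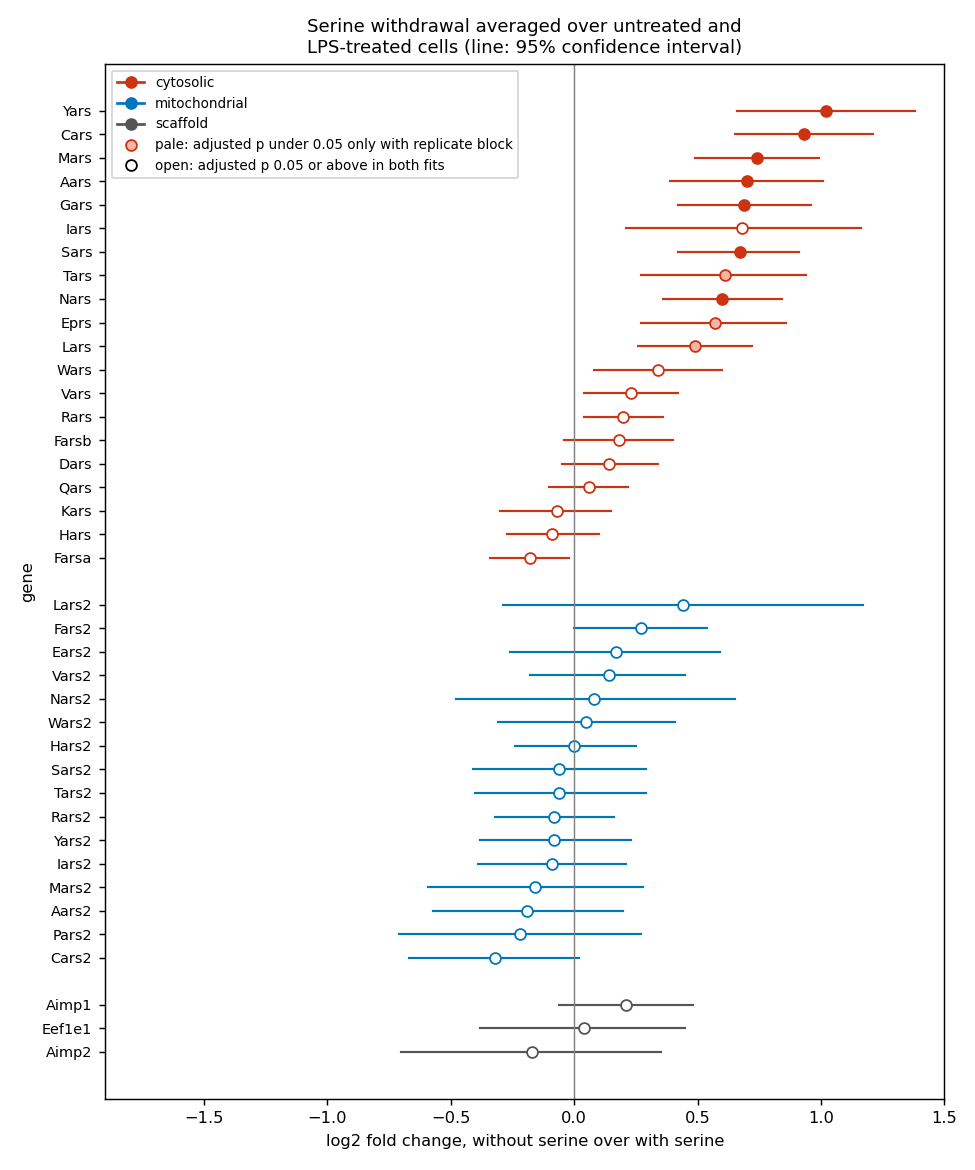
Each row is a gene, and the horizontal axis is its log2 fold change without serine over with serine, averaged over untreated and LPS-treated cells. Lines give an approximate 95% confidence interval from the SE, which was derived from the F statistic of the test. The 7 filled points, from Nars at 0.60 to Yars at 1.02, are all cytosolic, the 3 pale points (Tars, Eprs, Lars) were called only with the replicate block, and the mitochondrial genes lie between -0.32 and 0.44.

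Yars charges tRNA with tyrosine. It measured 27.7, 29.5, 20 and 20.6 CPM in replicates 1 to 4 of untreated cells with serine and 49.3, 49, 38 and 78.9 CPM without it. With LPS it measured 57.5, 41.8, 32.2 and 36.1 CPM with serine and 104, 82.9, 60.6 and 71.3 CPM without. All 4 untreated libraries without serine lay above all 4 with serine, and the LPS groups did not overlap either. The averaged log2 fold change was 1.02 ± 0.17 (SE), the largest among the 39 genes, with an adjusted p of 0.0147 by edgeR, and it was 0.91 without untreated serine-free replicate 4, whose value was the highest of its group.

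Cars, the enzyme for cysteine, measured 48.5, 42.3, 31.4 and 30.2 CPM in untreated cells with serine and 93.1, 84, 66.9 and 77.6 CPM without. With LPS the values were 126, 86, 72.7 and 86.1 CPM with serine and 180, 162, 146 and 151 CPM without. Neither pair of groups overlapped, and the level without serine was higher in 8 of 8 same-numbered pairs. The averaged log2 fold change was 0.93 ± 0.13 (SE, adjusted p = 0.00638, edgeR).

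Mars, the enzyme for methionine, stood at 36.4, 41.3, 34.4 and 35.5 CPM in untreated cells with serine and at 62.7, 63.1, 52.4 and 48.9 CPM without. With LPS it stood at 47.5, 42, 30.1 and 38.7 CPM with serine and at 87.7, 79.9, 54.8 and 61.8 CPM without. Both withdrawals separated the groups completely, with an averaged log2 fold change of 0.74 ± 0.11 (SE, adjusted p = 0.0109, edgeR). Exons of Mars overlap those of Ddit3, a stress gene on the opposite strand that also rose (log2 fold change 1.11), and reads of the shared bases cannot be told apart because the library kit does not mark strand.

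Aars, the enzyme for alanine, measured 179, 212, 147 and 153 CPM in untreated cells with serine and 304, 345, 231 and 182 CPM without. The groups overlapped in untreated cells, where replicate 4 without serine lay below replicate 2 with serine. With LPS the values were 381, 311, 223 and 257 CPM with serine and 588, 526, 431 and 463 CPM without, which did not overlap. The averaged log2 fold change was 0.70 ± 0.14 (SE) at an adjusted p of 0.0499 by edgeR, at the edge of the threshold, and the gene was higher in 8 of 8 pairs. Exons of Aars share bases with those of Exosc6 on the same strand, and how reads there were assigned is not given in the sources used here.

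Sars, the cytosolic enzyme for serine itself, measured 108, 130, 109 and 107 CPM in untreated cells with serine and 164, 182, 138 and 210 CPM without. With LPS it measured 74.6, 89.8, 71.8 and 62.7 CPM with serine and 144, 142, 93.6 and 114 CPM without. The groups did not overlap in either state, and the averaged log2 fold change was 0.67 ± 0.11 (SE, adjusted p = 0.0195, edgeR). Its mitochondrial partner Sars2 measured 4.95, 6.45, 3.52 and 6.26 CPM against 5.98, 5.05, 4.49 and 5.06 CPM in untreated cells. With LPS, Sars2 measured 3.57, 4.32, 3.05 and 4.84 CPM with serine and 4.57, 3.99, 2.99 and 3.12 CPM without. These Sars2 groups overlapped, and its averaged log2 fold change of -0.06 ± 0.16 (SE) did not pass the test (adjusted p = 0.977, edgeR).

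**Figure D2:**
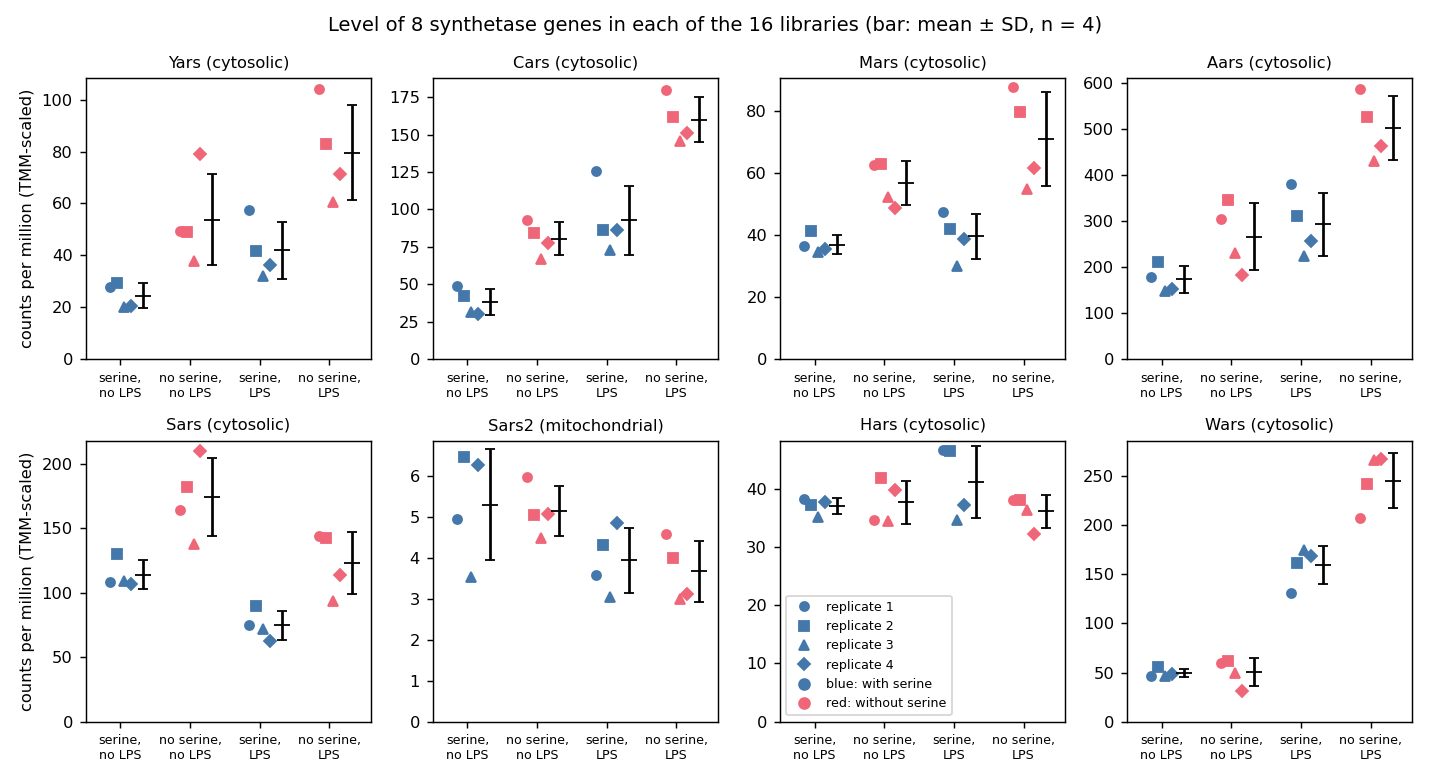
The vertical axes give TMM-scaled CPM in each library, with 1 symbol per replicate number, blue with serine and red without, and bars for the mean ± SD of 4 libraries. Yars, Cars, Mars and Sars are separated by serine in both LPS states, Sars2 and Hars overlap, and Wars is highest in LPS-treated cells without serine at 207 to 267 CPM.

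The other genes called were Gars, the glycine enzyme, with an averaged log2 fold change of 0.69 ± 0.12 (SE, adjusted p = 0.0311, edgeR), and Nars, the asparagine enzyme, with 0.60 ± 0.11 (SE, adjusted p = 0.0352, edgeR). Same-numbered libraries of different groups deviated together, so the fit with the replicate number as a block also applies. The block added Eprs (glutamate and proline) at 0.56, Lars (leucine) at 0.48 and Tars (threonine) at 0.60, for 10 cytosolic genes against 0.745% of all genes. With total-count scaling the calls were Cars and Yars alone, 2 genes, where 0.0727% of all genes were higher. When each library was left out in turn, between 2 and 11 of the 39 genes were called, the most without untreated serine-free replicate 4, where the share of all genes rose to 1.42%. Only Cars and Mars stayed called in all 16 of these fits. The call was lost for Aars in 14, Nars in 12, Gars in 11, Sars in 8 and Yars in 3.

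The remaining cytosolic genes did not pass this test. Iars (isoleucine) had a log2 fold change of 0.68 ± 0.22 (SE), and its value of 28.3 CPM in untreated serine-free replicate 4 lay below the 4 libraries with serine at 43.1 to 59.4 CPM. Wars (tryptophan) had 0.34, Vars (valine) 0.23, Rars (arginine) 0.20, Farsb (phenylalanine, beta subunit) 0.18, Dars (aspartate) 0.14 and Qars (glutamine) 0.06. Kars (lysine) had -0.07, Hars (histidine) -0.09 and Farsa (phenylalanine, alpha subunit) -0.18. With the block and without that library, Iars, Rars, Vars and Wars were called as well, for 14 of 20 against 5.56% of all genes, while Dars, Farsa, Farsb, Hars, Kars and Qars were not.

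Counted by pairs, 11 of 20 cytosolic genes were higher without serine in all 8 same-numbered pairs, against 3.1% of all genes tested. So was 1 of 16 mitochondrial genes, Fars2, with a log2 fold change of 0.27 (unadjusted p = 0.0418, adjusted p = 0.616, edgeR). Untreated serine-free replicate 4 held its highest value, 27 CPM against 15.1 to 15.9 CPM in that group. With the block and without that library the change of Fars2 was 0.18. Rars was among these 11 with the smallest change, 0.20.

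In untreated cells alone no gene of the whole table was called in either direction (0%) by edgeR's quasi-likelihood test. An unadjusted p under 0.05 was found for 548 genes, 4.98% of all genes tested. Among these were 9 of the 20 cytosolic and 2 of the 16 mitochondrial genes. The cytosolic median log2 fold change was 0.43 and 17 of 20 were positive, beside a mitochondrial median of -0.02, a scaffold median of 0.25 and 0.01 over all genes. Without untreated serine-free replicate 4 the scaffold median was 0.03, and the cytosolic and mitochondrial medians were 0.43 and -0.02. In all 4 pairs 11 cytosolic genes were higher without serine, against 8.72% of all genes, and for 7 of them the groups did not overlap, against 1.46%. Only Qars among the 20 was lower in all 4 pairs (9.91% of all genes), and none had groups separated in the lower direction (1.32%).

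Other fits of the untreated comparison made calls. The replicate block called Cars (log2 fold change 1.09 ± 0.11 SE, adjusted p = 0.000729, edgeR), 1 of the 9 genes called (0.0818%), and DESeq2 called Cars and Yars (0.12% of all genes higher). The block without untreated serine-free replicate 4 called 7 of the 39 genes, Cars at 1.05, Yars at 0.83, Aars at 0.71, Mars at 0.65, Gars at 0.51, Sars at 0.46 and Lars at 0.39, among 70 genes called higher (0.63%). In the authors' deposited table for this comparison, Cars is the 1 cytosolic gene marked higher among 6 genes.

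In LPS-treated cells the cytosolic median log2 fold change of withdrawal was 0.66, beside -0.07 for mitochondrial genes, -0.22 for scaffold genes and 0 for all genes. None of the 39 was called by edgeR's quasi-likelihood test without the block, although 14 cytosolic genes and 1 mitochondrial gene had an unadjusted p under 0.05, as did 676 of the 11004 genes (6.14%). By adjusted p the background was 0.0545% of all genes higher and 0.00909% lower. In all 4 pairs 14 of 20 cytosolic genes were higher without serine, against 18.6% of all genes, and 8 had groups that did not overlap, against 4.27%. Farsa was the 1 cytosolic gene whose groups were separated in the lower direction (3.31% of all genes), at -0.25.

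With the replicate block 11 cytosolic genes were called higher in LPS-treated cells, against 0.663% of all genes, and none lower (0.227%). They were Iars at 0.99, Yars at 0.93, Mars at 0.84, Cars at 0.81, Aars at 0.79, Gars at 0.77, Tars at 0.76, Nars at 0.75, Sars at 0.72, Eprs at 0.69 and Lars at 0.52, with adjusted p values from 0.00282 to 0.0469 (edgeR). Without untreated serine-free replicate 4, which is no part of this contrast but enters its shared estimate of spread, 8 were called with no block (1.01% of all genes) and 14 with it (4.98%). DESeq2 called 8 (0.75%), and the authors' deposited table marks 8 cytosolic genes higher, among 65 of 10908 genes. Iars and Eprs have adjusted p values of 0.0122 and 0.023 there (edgeR) and are not marked, as the authors' mark is stricter than 0.05.

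Whether withdrawal acted differently with and without LPS was tested as the difference between the log2 fold changes. No gene was called by edgeR's quasi-likelihood test, and 253 genes (2.3% of all genes) had an unadjusted p under 0.05. DESeq2 called 1 gene, which was not among the 39. Wars had the largest cytosolic difference, 0.57 ± 0.24 (SE, unadjusted p = 0.0288 by edgeR, adjusted p = 0.95), from 0.06 in untreated cells to 0.63 with LPS. It moved to 0.41 ± 0.16 (SE, unadjusted p = 0.0185, adjusted p = 1 by edgeR) without untreated serine-free replicate 4, where Wars had 0.22 in untreated cells. With the block and without that library the difference of Wars was 0.39 and that of Iars 0.42, so which gene had the larger difference varied with the fit.

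Summed per library, the 20 cytosolic genes made up 1380 to 1640 CPM in untreated cells with serine and 1730 to 2180 CPM without. With LPS the sums were 1700 to 2260 CPM with serine and 2550 to 3320 CPM without. The groups did not overlap in either state, and within same-numbered pairs the sum without serine was 1.24 to 1.4 times that with serine in untreated cells and 1.47 to 1.54 times with LPS. The 15 mitochondrial genes other than Lars2 summed to 159 to 172 CPM and 142 to 169 CPM in untreated cells, and to 108 to 128 CPM and 102 to 129 CPM with LPS, so the groups overlapped between media.

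The ratio of these sums, with Lars2 left out, which does not depend on how libraries are scaled, was 8.37 to 9.51 in untreated cells with serine and 10.8 to 13.6 without. With LPS it was 15.1 to 20.9 with serine and 22.4 to 30.1 without. The 4 groups of libraries were in this order with no overlap between any of them. Lars2 holds most of the mitochondrial counts, and with it in the sum the groups overlapped and were in another order. The ratio was then 1.74 to 2.92 and 0.613 to 3.76 in untreated cells with and without serine, and 1.62 to 2.25 and 2.29 to 4.36 with LPS, and its mean was lower with LPS than without it in cells with serine (1.92 and 2.14).

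**Figure D3:**
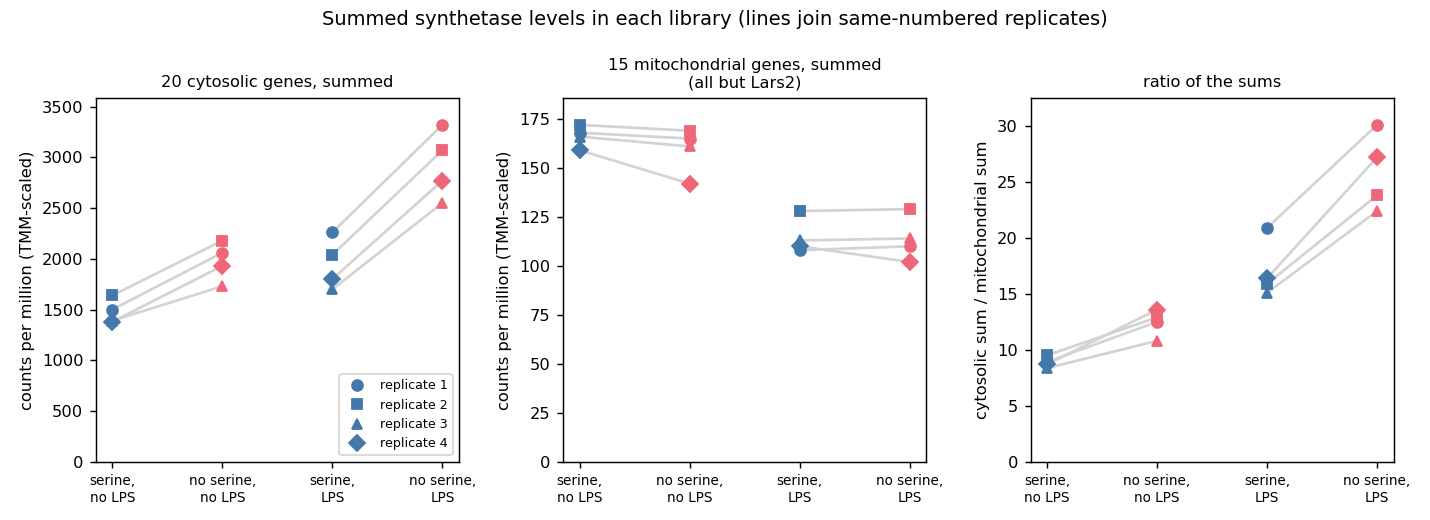
The panels plot, for each library, the summed TMM-scaled CPM of 20 cytosolic genes, of 15 mitochondrial genes, and the ratio of these sums, with lines joining same-numbered replicates. All 8 lines of the cytosolic panel and of the ratio panel run upwards from serine to no serine, and the ratio reaches 22.4 to 30.1 in LPS-treated cells without serine.

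Set side by side by amino acid, 16 pairs of a cytosolic gene and its mitochondrial partner could be formed, with Eprs entering for both Ears2 and Pars2. Dars, Gars, Kars and Qars had no partner in the set, and Farsb was not paired. In 14 of 16 the averaged withdrawal fold change was larger for the cytosolic gene, with a median difference of 0.59 on the log2 scale. The widest gaps were those of Cars over Cars2 (1.25) and Yars over Yars2 (1.10). The exceptions were Farsa against Fars2, at -0.18 and 0.27, and Hars against Hars2, at -0.09 and 0.00. Hars and Hars2 lie head to head and share exon bases on opposite strands, so part of their reads cannot be told apart.

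No mitochondrial gene was called in any withdrawal comparison, and their averaged log2 fold changes ranged from -0.32 to 0.44. Cars2, the lowest, measured 5.56, 5.12, 7.04 and 6.12 CPM in untreated cells with serine and 5.82, 6.73, 5.51 and 3.71 CPM without. With LPS it measured 4.91, 3.97, 4.74 and 5.04 CPM with serine and 4.72, 2.43, 2.62 and 2.73 CPM without. The groups overlapped in both states, with 3 of 4 LPS libraries without serine below every library with serine.

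Lars2, the highest, measured 345, 613, 632 and 603 CPM in untreated cells with serine and 524, 410, 556 and 3000 CPM without. With LPS it measured 899, 881, 937 and 896 CPM with serine and 650, 672, 823 and 1110 CPM without. Its averaged log2 fold change of 0.44 ± 0.34 (SE) rested on 1 library, untreated serine-free replicate 4, and was -0.15 without it. In the other 3 untreated pairs it was higher once and lower in the rest.

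The scaffold genes did not pass the test in any withdrawal comparison. Aimp1 measured 27.8, 36.4, 31.1 and 29.9 CPM in untreated cells with serine against 30.9, 34.7, 30.5 and 55.7 CPM without, and 21.3, 27.6, 29.8 and 25.2 against 26.3, 32.6, 29.7 and 27.5 CPM with LPS. Aimp2 measured 6.16, 8.19, 4.4 and 7.24 against 6.38, 7.02, 8.34 and 2.7 CPM, and with LPS 4.61, 6.56, 5.93 and 5.85 against 2.59, 8.5, 4.11 and 3.12 CPM. Eef1e1 measured 15.4, 16.9, 13.8 and 11.6 against 14.7, 16, 10.8 and 32 CPM, and with LPS 28.1, 29.7, 19.5 and 18.8 against 21.5, 26.2, 18.7 and 16.4 CPM. All these groups overlapped between media. Eef1e1 was lower without serine in 7 of 8 pairs, the exception being the pair with untreated serine-free replicate 4, and its averaged log2 fold change moved from 0.04 to -0.14 without that library.

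The cytosolic genes were also grouped by membership of the multi-synthetase complex, a grouping taken from textbook knowledge after the values had been seen. Of the 8 complex members (Dars, Eprs, Iars, Kars, Lars, Mars, Qars, Rars) 1 was called in the averaged withdrawal, and 3 with the block, with a median log2 fold change of 0.35. Of the 12 enzymes outside it 6 were called, and 7 with the block, with a median of 0.60. Over all genes 0.282% were called higher, and 0.745% with the block. Values ranged from -0.07 to 0.74 inside the complex and from -0.18 to 1.02 outside, so the sets overlapped.

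Among the 13 cytosolic genes with a promoter window, the 5 with the response element had averaged log2 fold changes of 0.61 to 1.02 with a median of 0.69. The 8 without it ranged from -0.18 to 0.74 with a median of 0.16. In the averaged withdrawal 3 of the 5 and 2 of the 8 were called higher, against 0.282% of all genes. With the replicate block 4 of the 5 and 3 of the 8 were, against 0.745%. In LPS-treated cells none of either set was called without the block (0.0545% of all genes higher). With it all 5 were and 3 of the 8, Eprs, Mars and Sars, against 0.663% of all genes. In untreated cells none of either set was called with or without the block when all libraries were kept. With the block and without untreated serine-free replicate 4, 3 of the 5 and 2 of the 8 were called there (0.63% of all genes). The same fit called all 5 and 3 of the 8 in the averaged withdrawal (5.56% of all genes).

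Of 13 genes of the GCN2 and ATF4 amino acid response, 8 were called higher in the averaged withdrawal, against 0.282% of all genes. The median log2 fold change of the 13 was 0.79, beside 0.02 over all genes. Atf4, the transcription factor, rose by 0.79, Asns (asparagine synthetase) by 1.43, Trib3 (a pseudokinase that restrains ATF4) by 1.60, Chac1 (glutathione breakdown) by 2.03 and Mthfd2 (mitochondrial folate metabolism) by 1.24. Cebpg rose by 0.66, Ddit3 by 1.11 and Atf5 by 0.86, all transcription factors of the stress response. Eif2ak4, which encodes GCN2, and its partners Gcn1 and Impact had 0.14, 0.00 and 0.13 and did not pass the test, nor did Atf3 at 0.23 and Sesn2 at 0.75.

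Genes of neighbouring steps of tRNA use were looked at in the averaged withdrawal, where 0.282% of all genes were called higher. Of 11 tested genes for other steps of charging, proofreading and tRNA supply, 1 was called higher (median 0.10). It was Xpot, the exporter of tRNA from the nucleus, at 0.46. None of 7 genes for making selenocysteine from serine on its tRNA was called (median -0.02), and none of 6 elongation factors that take up charged tRNA (median 0.08).

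LPS moved synthetase genes in both directions, over the whole set in shares close to those of all genes. In cells with serine 10 of the 39 (25.6%) were called higher and 11 (28.2%) lower, against 27.6% of all genes called higher and 28.2% lower. By class, 9 of 20 cytosolic genes were called higher and 4 lower, 7 of 16 mitochondrial genes lower and none higher, and 1 scaffold gene higher. Median log2 fold changes were 0.39 for cytosolic, -0.51 for mitochondrial and -0.19 for scaffold genes, beside -0.03 for all genes. Scaling by total counts moved the median of all genes by -0.62, and then 4 cytosolic genes were called higher (Cars, Kars, Rars, Wars) and 23 of the 39 genes lower, against 15.1% of all genes higher and 58.2% lower. In cells without serine, 11 cytosolic genes were called higher and 4 lower and 9 mitochondrial genes lower, against 27.1% and 29.7% of all genes. Without untreated serine-free replicate 4 this comparison called 11 mitochondrial genes lower and Lars2 and Eef1e1 higher. In that fit 3472 of all 11107 genes tested were called higher and 3568 lower, also more than with all libraries. In the same comparison total-count scaling moved the median by -0.57, left Kars, Rars and Wars called higher, and called 24 of the 39 lower, against 15.3% and 59.7% of all genes.

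Groups of libraries did not overlap for 8 cytosolic genes higher and 4 lower and for 7 mitochondrial genes lower with serine, against 30.7% of all genes higher and 30.9% lower. Without serine these counts were 8, 3 and 5, against 25.3% and 22.4%. In all 4 same-numbered pairs 11 cytosolic genes were higher with LPS in cells with serine (37% of all genes) and 12 mitochondrial genes lower (39%), and without serine the counts were 13 (30.9%) and 9 (31.1%). With the replicate block 10 cytosolic genes were called higher (29.7%) and 8 mitochondrial genes lower (30.7%) with serine, and 13 (29.4%) and 10 (31.6%) without.

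Dendritic cell markers summed to 1.11 to 2.53 CPM without LPS and 8.38 to 15.2 CPM with it, and stromal markers to 1.01 to 20 CPM and 14.8 to 44.7 CPM. Their part in the LPS changes was not tested.

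Wars charges tRNA with tryptophan and is known as an interferon-induced gene. It measured 46.8, 55.4, 46.1 and 48.3 CPM in untreated cells with serine and 131, 161, 174 and 168 CPM with LPS. Without serine it measured 59.4, 61.8, 50 and 31.4 CPM before LPS and 207, 242, 266 and 267 CPM after. No LPS library overlapped an untreated one in either medium. The log2 fold change was 1.69 ± 0.17 (SE, adjusted p = 3.31e-07, edgeR) with serine and 2.26 ± 0.18 (SE, adjusted p = 1.26e-08, edgeR) without, and 1.07 and 1.67 with total-count scaling.

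Rars, the arginine enzyme, measured 65.1, 71.3, 68.1 and 61.8 CPM in untreated cells with serine and 169, 179, 196 and 179 CPM with LPS. Without serine it measured 70.5, 84.7, 69.2 and 78.9 CPM before LPS and 185, 233, 218 and 203 CPM after. The groups were far apart in both media, with log2 fold changes of 1.44 ± 0.11 and 1.47 ± 0.11 (SE, adjusted p = 6.36e-09 and 5.67e-09, edgeR). Wars and Rars, which had the largest rises with LPS in cells with serine among the 39 genes, were not called in the averaged withdrawal without leaving out a library.

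Cars at 1.28, Kars at 1.07, Yars at 0.78, Aars at 0.76, Gars at 0.75, Farsa at 0.58 and Lars at 0.37 were the other cytosolic genes called higher with serine, of which Farsa and Lars turned to -0.03 and -0.24 with total-count scaling. Among genes not called, Tars went from 0.40 to -0.21, Iars from 0.42 to -0.19, Eprs from 0.21 to -0.41, and Mars and Hars from 0.10 and 0.15 to -0.51 and -0.46, where both were called lower. Yars, Aars, Gars, Farsa and Lars were not called under that scaling. Lower with LPS were Sars at -0.60, Dars at -0.58, Farsb at -0.53 and Qars at -0.49, which were called lower with total-count scaling too. Sars thus fell with LPS and rose with serine withdrawal, while Cars, Yars, Aars and Gars rose in both with TMM scaling. The subunits of the phenylalanine enzyme went in opposite directions with TMM scaling, Farsa higher and Farsb lower.

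Among mitochondrial genes Nars2 (asparagine) measured 3.94, 4.3, 4.65 and 4.59 CPM in untreated cells with serine and 0.298, 1.38, 1.52 and 1.41 CPM with LPS, where the lowest library held 2 counts. Without serine it measured 4.06, 4.35, 3.98 and 7.08 CPM before LPS and 1.07, 1.39, 0.561 and 1.75 CPM after. The groups did not overlap, and the log2 fold changes were -1.94 ± 0.35 and -1.96 ± 0.36 (SE, adjusted p = 0.000187 and 0.000184, edgeR).

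Vars2 (valine) measured 6.16, 7.27, 6.41 and 5.99 CPM in untreated cells with serine and 2.53, 3.28, 2.88 and 1.81 CPM with LPS. Without serine it measured 6.77, 7.42, 6.54 and 8.09 CPM before LPS and 3.04, 2.43, 3.92 and 2.14 CPM after. LPS separated the groups in both media, with log2 fold changes of -1.29 ± 0.21 and -1.30 ± 0.21 (SE, adjusted p = 4.91e-05 and 4.64e-05, edgeR). Pars2 at -1.29, Mars2 at -0.84, Hars2 at -0.82, Tars2 at -0.73 and Iars2 at -0.65 were the other mitochondrial genes called lower with serine. These counts are low, the 15 mitochondrial genes other than Lars2 lying at 1.84 to 56.1 CPM in untreated cells with serine.

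**Figure D4:**
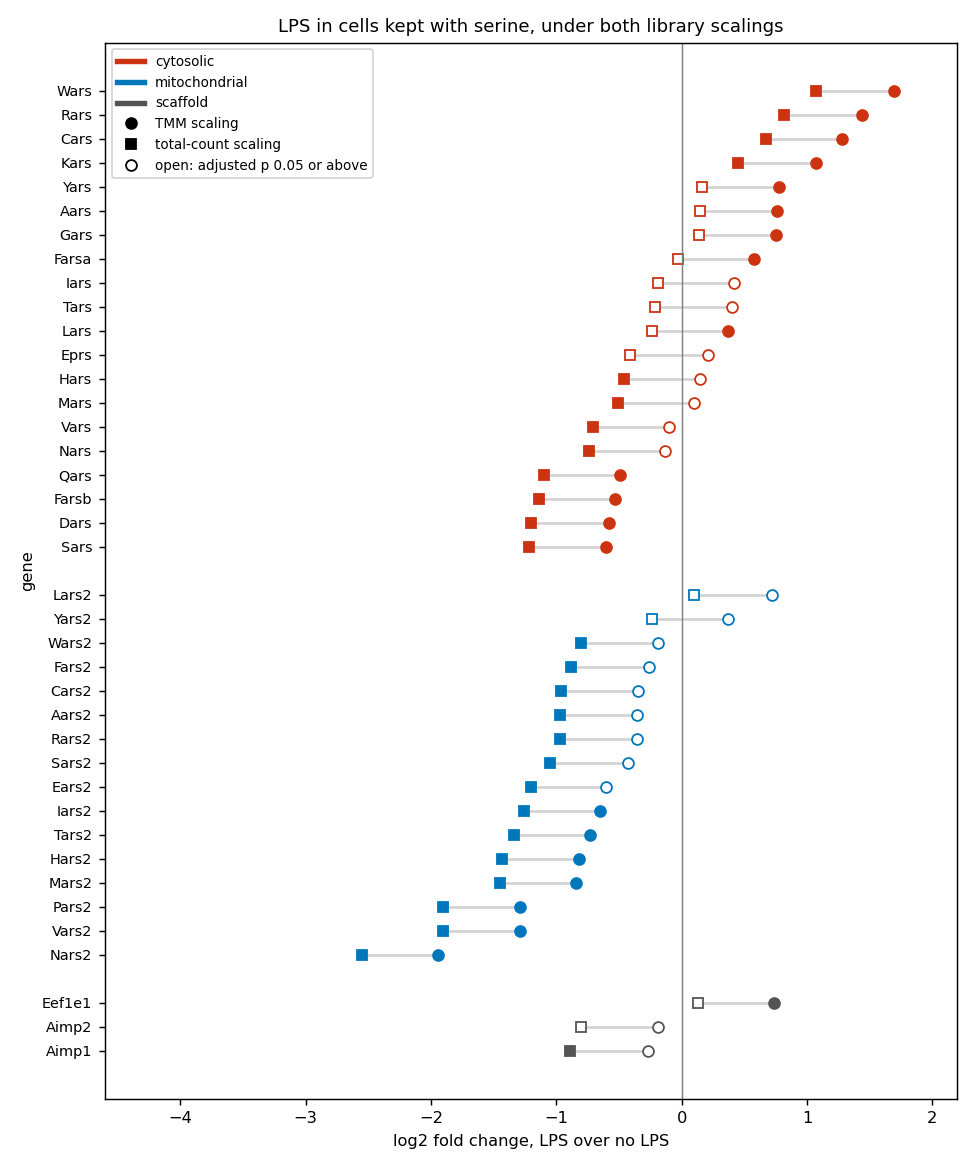
Each row is a gene, and the horizontal axis is the log2 fold change of LPS over no LPS in cells kept with serine, as circles with TMM scaling and squares with total-count scaling, filled where the adjusted p is under 0.05. Wars, Rars, Cars and Kars are filled to the right of 0 under both scalings, and all 7 mitochondrial genes called lower are filled to the left of 0 under both.

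Compared by partner, the LPS fold change of the cytosolic gene exceeded that of the mitochondrial gene in 14 of 16 pairs with serine, with a median difference of 1.10 on the log2 scale, and in 15 of 16 pairs without serine, with a median of 1.37. Differences between 2 genes of the same libraries do not depend on the scaling. Sars against Sars2 (-0.60 and -0.43) and Lars against Lars2 (0.37 and 0.72) were the exceptions with serine, and Sars against Sars2, both at -0.49, without it. That last exception rested on untreated serine-free replicate 4. Without this library Sars had -0.39 and Sars2 -0.49, while Lars2 turned from -0.46 to 0.71 and was called higher (adjusted p = 0.00704, edgeR), above Lars at 0.46, again for 15 of 16 pairs. The LPS and withdrawal comparisons share libraries, so these values stand side by side and are not independent.

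Of the scaffold genes Eef1e1 was called higher with LPS in cells with serine, with a log2 fold change of 0.74 ± 0.27 (SE, adjusted p = 0.0278, edgeR), and was not called with total-count scaling (0.13). In cells without serine it had 0.23, and -0.31 with total-count scaling. Without untreated serine-free replicate 4, which held its highest untreated value, it had 0.57 ± 0.20 (SE) and was called (adjusted p = 0.0203, edgeR), beside 0.73 with serine in that fit. Aimp1 and Aimp2 had -0.27 and -0.19 with serine and -0.36 and -0.48 without, and did not pass the test. Without that library they had -0.14 and -0.65 in cells without serine, and Aimp1 at -0.27 was called lower with serine (adjusted p = 0.0439, edgeR).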

How the data were processed

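Read counts per Ensembl gene were deposited by the authors as whole numbers, with gene lengths as other values. The build mm10 and the tools HTSeq, STAR, SAMtools, edgeR and Trimmomatic 0.33 are named by the submitters' processing notes, which state no roles. The authors' deposited tables also give a log2 fold change and an adjusted p-value per gene. Another 24 columns of per-sample values were not used.

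The analysis used edgeR 4.0.16 in R 4.3.3. The default filter on low counts (minimum count 10) left 11004 genes, libraries were scaled by TMM, and a robust quasi-likelihood model with 1 mean per group was fitted to all 16 libraries. Tests were two-sided, with Benjamini-Hochberg adjustment over the 11004 genes. The averaged withdrawal is the mean of both withdrawal contrasts. Total counts were 5760734 to 7845261 and 2871477 to 10043362 in untreated cells with and without serine, and 6240112 to 8092528 and 6573849 to 7892215 with LPS. The code was tested on simulated data.

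Replicate numbers come from the titles. After subtraction of group means, libraries with the same number correlated across genes at 0.125 to 0.66, above the criterion of 0.1 in every pair. Libraries with different numbers reached at most 0.141, so some also passed that criterion. Within each comparison the lowest same-number value lay above the highest of different numbers, so the numbers pair the samples. For LPS without serine these were 0.125 and 0.0951. No library was a copy of another among 120 pairs (lowest chi-square per degree of freedom 2.04).

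The genes, the related lists, the motif and the cell type markers were chosen with earlier results of these data known. Values in every library were given for Sars and Sars2, the scaffold genes, the 4 cytosolic and 2 mitochondrial genes with the largest averaged withdrawal change, and the 2 called genes with the largest rise and the 2 with the largest fall under LPS with serine. Genes called in any withdrawal were named. Alternatives were the replicate block, RLE and total-count scaling, no filter, DESeq2 1.42.0, each library left out, and the block without untreated serine-free replicate 4. Promoter windows are from RefSeq, GRCm38.p6, and 1 promoter stretch is not reported here. Of the 39 genes, 15 share exon bases with a gene on the opposite strand and 1, Aars, with a gene on its own strand.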

Additional observations from a re-analysis of the deposited data

Results flagged for a closer look

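In 16 of 156 sets of 4 libraries (39 genes in 4 groups) 1 library lay far from the other 3 in the level of a gene, and chance alone would give about 1 in 20. Of these, 6 were untreated serine-free replicate 4, the library with the lowest total count. It had high values of Lars2 (3000 CPM), Aimp1 (55.7), Fars2 (27) and Nars2 (7.08) and low values of Rars2 (11.1) and Wars2 (2.36).

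In untreated cells with serine, replicate 2 was high in Sars (130 CPM), Farsb (40.6) and Wars2 (7.06), and replicate 1 was high in Hars2 (23.4) and low in Lars2 (345) and Fars2 (11.9). In LPS-treated cells with serine, replicate 1 was high in Hars2 (13.8 CPM) and low in Nars2 (0.298). In LPS-treated cells without serine, replicate 1 was high in Cars2 (4.72 CPM) and replicate 4 in Mars2 (2.92). Of the cytosolic genes, Sars and Farsb are the only ones in these sets.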

How the results depend on the processing

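Counts of genes called moved most, and parentheses hold those among the 39. In untreated withdrawal, where nothing was called, the replicate block called 9 genes higher (1), no filter 2 (1), DESeq2 12 (2) and 1 lower, and 70 (7) were higher and 9 lower with the block when untreated serine-free replicate 4 was left out. In LPS-treated withdrawal, from 6 higher and 1 lower, the block gave 73 (11) and 25, DESeq2 75 (8) and 19, total-count scaling 0 and 0, no filter 3 higher, and the block without that library 553 (14) and 369. Leaving out each library gave 0 to 112 higher (0 to 8) and 0 to 44 lower. In the averaged withdrawal, from 31 higher (7) and 5 lower, the block gave 82 and 24, total-count scaling 8 (2) and 3, RLE 3 lower, no filter 19 and 3, DESeq2 116 and 27, the block without that library 617 (14) and 319, and leaving out each library 7 to 158 (2 to 11) and 2 to 39. The most in each case came without untreated serine-free replicate 4. In the LPS comparisons total-count scaling gave 1666 higher (4) and 6407 lower (23) with serine and 1686 (3) and 6566 (24) without, where no filter gave 8 of the 39 lower and leaving out libraries 7 to 13 higher. In the difference between the withdrawals DESeq2 called 1 gene higher, and the block without that library 4 higher and 4 lower. The cause was not tested.

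With total-count scaling the sign turned in LPS with serine for 8 of the 39 genes (Eprs, Farsa, Hars, Iars, Lars, Mars, Tars, Yars2) and without serine for 8 (Eprs, Farsa, Lars, Mars, Nars, Vars, Yars2, Eef1e1). Eef1e1 in the averaged withdrawal was -0.02 with total-count scaling, -0.18 with the block without that library and -0.14 to 0.13 when libraries were left out, and Lars2 was -0.12 with that block and -0.15 to 0.58. With total-count scaling Farsa was -0.03 and Lars -0.24 in LPS with serine, and -0.15 and -0.11 without. The block changed no other call in the withdrawals beyond those given beside the results. In LPS with serine it added Tars and Rars2, and without serine Eprs, Mars and Sars2. At these depths the mitochondrial genes other than Lars2 hold few reads, down to 2 in a library, which limits what can be detected in them.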
